A study of Triticum aestivum with 10 samples.

Results

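The genes described here are the 5 wheat genes for dehydrins and other late embryogenesis abundant (LEA) proteins that the annotation of the Affymetrix wheat array names. They are COR410, LOC543293 (Rab15), LOC543476 (LEA1), LOC543480 (EMH2) and LOC543497 (Em), of 771 genes with a symbol. They were taken by their names from the table that pairs probe sets with genes, which gave 10 of the 61179 probe sets tested, and every one of the 10 is accounted for. Only 1273 of the 61179 carry 1 gene symbol, so dehydrin and LEA transcripts without a symbol are not covered. COR410 and LEA1 have 1 probe set each, Em has 2, and Rab15 and EMH2 have 3 each. They are called here by the gene and the ending of the array's name for them. An ending of s_at marks probes shared by several related transcripts, x_at marks probes of which some may bind other sequences, and the third Rab15 probe set is called TaAffx after the start of its name.

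Expression was measured in whole developing seeds of the winter wheat Redland (Triticum aestivum), each RNA sample on its own array. All plants had been vernalized in the cold as seedlings and were then grown in a growth chamber. There were 5 groups of 2 arrays. In 3 groups the plants were watered and seeds were taken 24, 48 or 72 hours after fertilization (HAF), and in the other 2 watering had been stopped and seeds were taken 48 or 72 HAF. Drought is said to start at 24 HAF in one part of the labels and at 48 HAF in another, so the drought seeds of 48 HAF had been under stress for 24 hours or had only entered it. The arrays of a group are called biological replicates, but neither plants nor pots are named. A p-value therefore sets a difference against the spread between these samples, estimated from all 5 groups together.

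LEA proteins are hydrophilic proteins that accumulate late in seed maturation, chiefly in the embryo and aleurone, and in vegetative tissues that lose water. Dehydrins are one family of them, and in cereals many LEA genes are induced by the hormone abscisic acid, by drying and, for some, by cold. COR410 (synonym WCOR410) encodes an acidic wheat dehydrin known from cold-treated tissue and found at the plasma membrane. Rab15, named for its response to abscisic acid, encodes another dehydrin. LEA1 (synonyms LEA and PMA2005) encodes a LEA protein of a family that takes up helical structure on drying. Em and EMH2 encode Em proteins, small LEA proteins abundant in the mature wheat embryo.

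Most values of the dehydrin and LEA probe sets lay below the median of their array. Rab15 x_at and EMH2 s_at lay above it on all 10 arrays, and Rab15 at on 9. None of their 100 values reached the upper quartile of its array, which lay at 5.61 to 6.41 on the log2 scale. Of these 100 values, 33 lay between the array's median and its upper quartile, 39 between the lower quartile and the median, and 28 below the lower quartile. The array medians were 4.08 to 4.24. Probe sets differ in how strongly they bind their target, so a place within an array does not rank the transcripts of different genes.

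**Figure D1:**
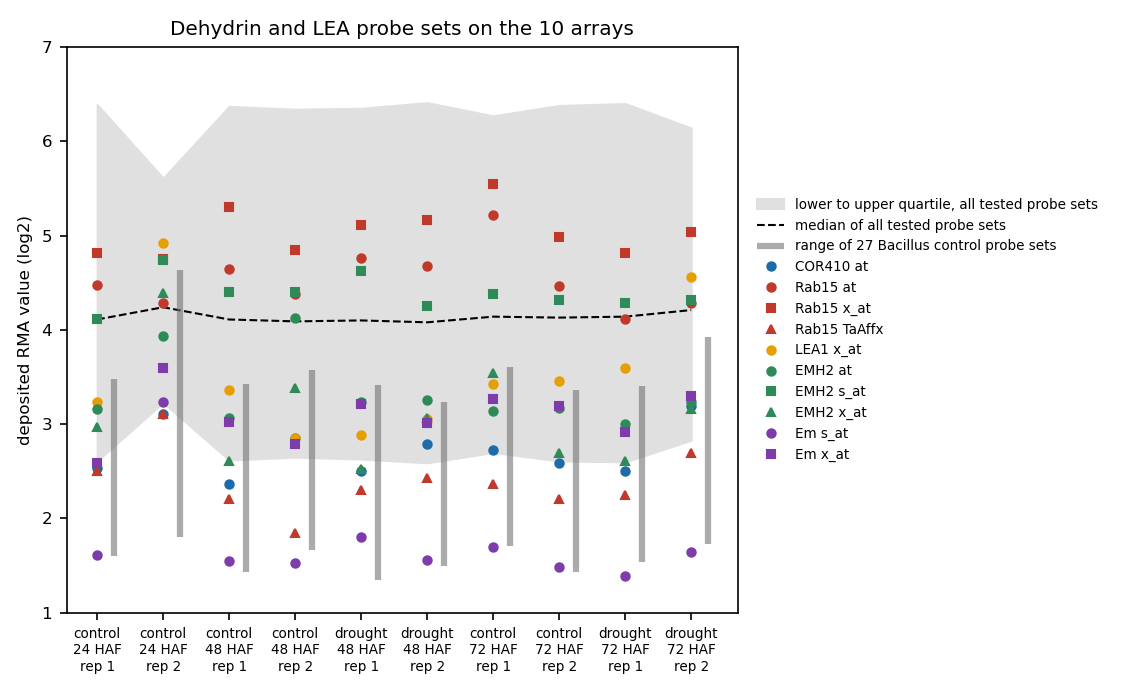
Deposited RMA value (log2) of the 10 dehydrin and LEA probe sets on each of the 10 arrays, with the quartile band and median of all tested probe sets and, as grey bars, the range of 27 bacterial control probe sets. Rab15 x_at and EMH2 s_at lie above the grey bar on every array, Em s_at lies near its foot on 9 arrays, and no point reaches the top of the quartile band.

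A yardstick for low values was taken from 27 control probe sets for Bacillus subtilis genes, which wheat RNA should not contain; the labels mention no bacterial RNA added to the samples. This yardstick was chosen after the values had been seen. The 27 probe sets read between 1.35 and 4.64 over all arrays. Only 2 of the 10 dehydrin and LEA probe sets, Rab15 x_at and EMH2 s_at, exceeded all 27 on every array, 3 did so on some arrays and 5 on none. Levels of the other 8 therefore overlapped, on at least 1 array, with signal from probe sets that have no target in wheat. For Rab15 at that was so only on control 24 HAF replicate 2, where it exceeded 25 of the 27. The highest Bacillus value was 4.64 on that array and 3.24 to 3.92 on the others.

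Control 24 HAF replicate 2 stood apart from the other arrays and touches every result at 24 HAF. All groups share the estimate of the spread, so this array also enters the intervals and p-values of the drought comparisons. It does not enter the differences fitted between the other groups. This array correlated at r = 0.811 to 0.898 with the other 9 arrays, and its values were compressed. Its lower quartile was 3.23 against 2.59 to 2.83 elsewhere, and its upper quartile 5.61 against 6.14 to 6.41. The Bacillus probe sets had a median of 2.63 on it, against 1.87 to 2.20 on the other 9. The BioB control probe sets, also bacterial, averaged 11.86 on it, against 4.01 to 6.97 on the other 9. Drought 72 HAF replicate 2 was compressed to a smaller degree, with a lower quartile of 2.83, an upper quartile of 6.14 and the Bacillus median of 2.20. Replicates correlated at 0.820 at control 24 HAF and at 0.951 to 0.987 in the other 4 groups. Over all probe sets, the median gap between replicates was 0.86 at control 24 HAF and 0.18 to 0.47 in the others. All of these gaps feed the shared estimate of the spread. Every array had a higher correlation with some array of another group than with its own replicate. The highest r was 0.898 for control 24 HAF replicate 2 and 0.959 to 0.996 for the other 9. At control 72 HAF, for example, the replicates correlated at 0.969, and replicate 2 reached 0.996 with an array of another group. Comparisons between groups thus rest on replicates less alike than some arrays of different groups. Arrays were kept in their labelled groups, and whether those labels hold was not tested.

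The dehydrin COR410 read 2.54 and 3.11 in control seeds at 24 HAF, 2.36 and 2.85 at 48 HAF and 2.73 and 2.59 at 72 HAF. In drought seeds it read 2.50 and 2.79 at 48 HAF and 2.50 and 3.19 at 72 HAF. Every group overlapped with the next in the order of their means, and those means spanned only 0.24. Its place within the arrays was the 19.1st to 32.3rd percentile, where a percentile is the share of tested probe sets with a lower value. On control 24 HAF replicate 2 its log2 level was higher than on replicate 1, while its percentile was not (22.4 against 23.3). The probe set exceeded 19 to 24 of the 27 Bacillus probe sets.

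Of the dehydrins, only Rab15 had a probe set above every Bacillus probe set on all 10 arrays. Rab15 x_at read 4.81 and 4.75 in control seeds at 24 HAF, 5.30 and 4.85 at 48 HAF and 5.55 and 4.98 at 72 HAF, and in drought seeds 5.11 and 5.17 at 48 HAF and 4.82 and 5.04 at 72 HAF. All 10 values lay above the array median, at the 58.5th to 67.6th percentile. Rab15 at read 4.48 and 4.29 in control seeds at 24 HAF, 4.65 and 4.38 at 48 HAF and 5.22 and 4.47 at 72 HAF, and in drought seeds 4.76 and 4.68 at 48 HAF and 4.12 and 4.29 at 72 HAF. It was above the median on 9 arrays and just under it on drought 72 HAF replicate 1. For both probe sets control 72 HAF replicate 1 was the highest array. Drought 72 HAF was below drought 48 HAF with no overlap, while 44.5% of all probe sets did not overlap there in either direction.

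The third probe set, Rab15 TaAffx, lay below the lower quartile on all 10 arrays. It read 2.50 and 3.11 in control seeds at 24 HAF, 2.21 and 1.85 at 48 HAF and 2.36 and 2.21 at 72 HAF, and in drought seeds 2.30 and 2.43 at 48 HAF and 2.25 and 2.69 at 72 HAF. Across the 10 arrays the first 2 Rab15 probe sets ran together, with r = 0.877 and Spearman's rho = 0.709, and r = 0.872 without control 24 HAF replicate 2. The third did not follow either, with r = -0.160 to Rab15 at and -0.204 to Rab15 x_at. These probe sets share a gene name and all 10 arrays, and the correlations are given as a description. Differences between groups had the same sign in 8 of the 8 comparisons for the first pair, and in 3 of 8 for the third with each of them; these comparisons share arrays and are not independent.

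LEA1 varied most of the 10 probe sets. LEA1 x_at read 3.24 and 4.92 in control seeds at 24 HAF, 3.36 and 2.85 at 48 HAF and 3.43 and 3.46 at 72 HAF. In drought seeds it read 2.88 and 3.05 at 48 HAF and 3.60 and 4.56 at 72 HAF. All 4 arrays of 72 HAF lay above all 4 of 48 HAF, while 12.2% of all probe sets did not overlap there in either direction. The highest values of LEA1, 4.92 and 4.56, were those of the 2 compressed arrays. By rank it stood out on the same 2 arrays, at the 64.2nd and 55.1st percentile against the 28.9th to 42.5th elsewhere. Without control 24 HAF replicate 2, its range of 1.71 over 9 arrays exceeded the range of 88.6% of all tested probe sets, while those of the other 9 exceeded 8.48 to 69.7%.

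**Figure D2:**
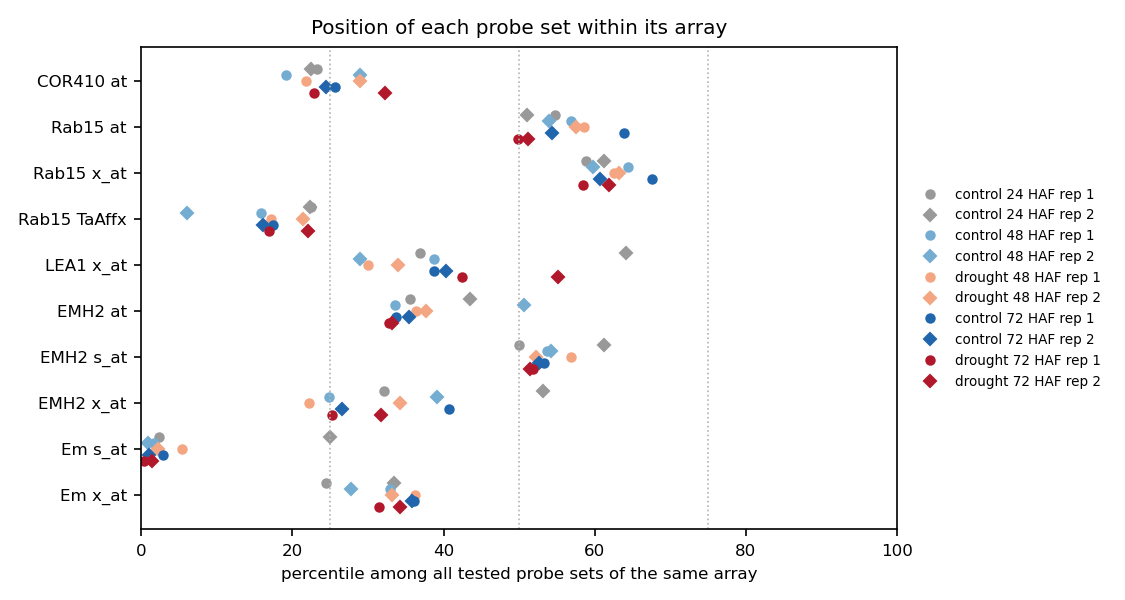
Percentile of each dehydrin and LEA probe set among all tested probe sets of the same array, with 1 point per array coloured by group and shaped by replicate. LEA1 leaves its usual range on control 24 HAF replicate 2 (64.2) and drought 72 HAF replicate 2 (55.1), and EMH2 x_at (53.1) and Em s_at (25.0) stand out on control 24 HAF replicate 2.

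Of the Em genes, EMH2 lay just above the array median on every array only by its brightest probe set, EMH2 s_at. The probes of that set are shared by several related transcripts, and the other 2 sets lay above the median on 1 array each. EMH2 s_at read 4.11 and 4.74 in control seeds at 24 HAF, 4.40 and 4.40 at 48 HAF and 4.38 and 4.32 at 72 HAF, and in drought seeds 4.62 and 4.25 at 48 HAF and 4.29 and 4.32 at 72 HAF. Its group means spanned 0.13, the narrowest span among the 10 probe sets. The other 2 EMH2 probe sets read lower, between 3.00 and 4.13 for EMH2 at and between 2.52 and 4.39 for EMH2 x_at. EMH2 at was highest on control 48 HAF replicate 2 (4.13, against 3.06 on replicate 1), a gap wider than that of 98.0% of all probe sets in that group, and the other probe sets of EMH2 differed by 0.00 and 0.76 between these 2 arrays. The 3 probe sets of EMH2 had r between 0.467 and 0.695 with each other over 10 arrays and between -0.217 and 0.498 over the 9 without control 24 HAF replicate 2.

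Em s_at had the lowest place within the arrays by its median percentile of 1.94. It read between 1.39 and 1.80 on 9 arrays and 3.23 on control 24 HAF replicate 2, or between the 0.324th and 5.33rd percentile and at the 25.0th. On those 9 arrays it exceeded 0 to 9 of the 27 Bacillus probe sets. Em x_at read 2.59 and 3.60 in control seeds at 24 HAF, 3.02 and 2.79 at 48 HAF and 3.27 and 3.19 at 72 HAF, and in drought seeds 3.21 and 3.01 at 48 HAF and 2.92 and 3.30 at 72 HAF. In both probe sets each group overlapped with the next in the order of the means, although some groups farther apart in that order did not overlap.

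The study's main question was how drought changes the seed in these first days. At 48 HAF, no dehydrin or LEA probe set passed the test of drought against control. The drought level of COR410 was 2.64 ± 0.20 and the control level 2.60 ± 0.35 (SD, n = 2 each), a difference of 0.04 with a 95% interval of -0.70 to 0.78. Rab15 x_at was at 5.14 ± 0.048 against 5.08 ± 0.32, and LEA1 at 2.96 ± 0.13 against 3.11 ± 0.36. EMH2 s_at was at 4.43 ± 0.26 against 4.40 ± 0.00034, and Em x_at at 3.11 ± 0.15 against 2.90 ± 0.16. Of the 10 probe sets 7 were higher and 3 lower in drought, with a median of 0.05 against 0.00 over all tested probe sets.

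In limma's fit across all probe sets, 0 of the 10 passed the adjusted p of 0.05 at 48 HAF (adjusted p = 1 for each), and 0% of all probe sets did. With an unadjusted p under 0.05 there were 0 of 10, against 0.134% of all. Drought and control arrays did not overlap for 3 of the 10, each higher in drought, against 31.3% of all probe sets in either direction. These 3 were Rab15 at (0.20), Rab15 TaAffx (0.33) and Em s_at (0.14), so the members' share was close to the background. The upper ends of the 95% intervals ran from 0.53 to 1.17 on the log2 scale, or from 1.45- to 2.25-fold. These are limits on the array values. RMA shrinks differences between dim probe sets, so a larger change in transcript is not excluded. In whole seeds, fewer cells that express a gene and less RNA per cell cannot be told apart.

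At 72 HAF the 2 largest drought differences among the members had opposite signs. The drought level of LEA1 was 4.08 ± 0.68 and the control level 3.44 ± 0.025 (SD, n = 2 each), a difference of 0.63 with a 95% interval of -0.58 to 1.84. Rab15 at was at 4.20 ± 0.12 against 4.85 ± 0.53, a difference of -0.64 with an interval of -1.40 to 0.12. In both, the drought arrays did not overlap with the control arrays, as was so for 21.3% of all probe sets in either direction. With drought 72 HAF replicate 2 left out the LEA1 difference was 0.15, and with replicate 1 left out it was 1.11. For Rab15 at, leaving out control 72 HAF replicate 1 gave -0.27 and leaving out replicate 2 gave -1.02. Rab15 x_at differed by -0.34 (4.93 ± 0.15 against 5.27 ± 0.40) with overlapping arrays.

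For COR410 at 72 HAF, drought gave 2.85 ± 0.48 against 2.66 ± 0.10 in controls (n = 2 each), for EMH2 s_at 4.30 ± 0.024 against 4.35 ± 0.043, and for Em x_at 3.11 ± 0.27 against 3.23 ± 0.059. Their differences were 0.18, -0.05 and -0.12, and each 95% interval held 0. That of COR410 was -0.16 with drought 72 HAF replicate 2 left out and 0.53 with replicate 1 left out. By limma 0 of the 10 probe sets passed (adjusted p = 1 for each; 0% of all), and 0 had an unadjusted p under 0.05, against 0.412% of all probe sets. LEA1 and Rab15 at were the 2 of 10 without overlap between drought and control, against 21.3% of all. Of the 10, 3 were higher and 7 lower, with a median of -0.06 against 0.03 over all. Upper ends of the 95% intervals ran from 1.08- to 3.58-fold, the widest being that of LEA1.

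**Figure D3:**
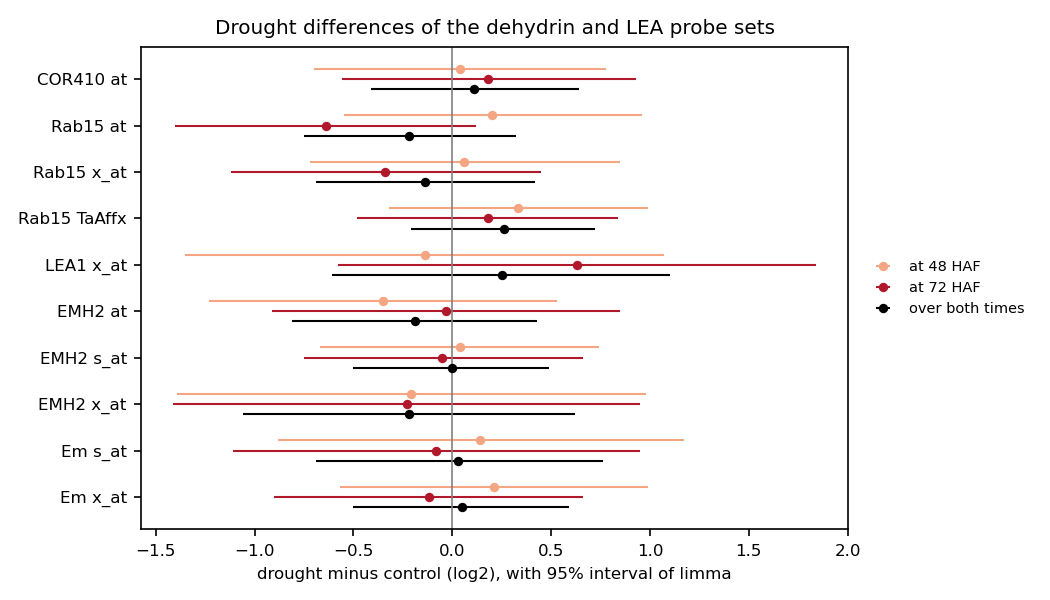
Drought minus control (log2) of each dehydrin and LEA probe set at 48 HAF, at 72 HAF and over both times, as points with the 95% intervals of limma (2 arrays a group). Every interval holds 0, and those over both times are the narrowest.

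Over both times together, with 4 drought and 4 control arrays, the differences lay between -0.22 and 0.26, 5 higher and 5 lower, with a median of 0.02 against 0.01 over all probe sets. COR410 was at 2.74 ± 0.32 against 2.63 ± 0.21 (SD, n = 4 each), Rab15 x_at at 5.03 ± 0.15 against 5.17 ± 0.31, and LEA1 at 3.52 ± 0.76 against 3.28 ± 0.29. EMH2 s_at was at 4.37 ± 0.17 against 4.37 ± 0.036 and Em x_at at 3.11 ± 0.18 against 3.07 ± 0.21. By limma 0 of 10 passed (adjusted p = 1 for each; 0% of all), 0 had an unadjusted p under 0.05 (0.111% of all), and 0 kept the 4 drought arrays apart from the 4 controls (0.721% of all). The upper ends of the 95% intervals were 1.25- to 2.14-fold. A mean rise of the array value under drought above 2.14-fold lay outside the interval of every probe set. A larger change in transcript is not excluded by this.

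Whether the drought difference changed between the times was tested by the interaction term. Rab15 at was higher in both drought arrays at 48 HAF and lower in both at 72 HAF, an interaction of -0.85 with a 95% interval of -1.92 to 0.23 (limma adjusted p = 1). LEA1 went the other way, with 0.77 and an interval of -0.93 to 2.48 (adjusted p = 1). The brightest probe sets of COR410 (0.14), EMH2 (-0.09) and Em (-0.33) had smaller interactions. For LEA1 it was 0.29 with drought 72 HAF replicate 2 left out and 1.25 with replicate 1 left out, and for COR410 it was -0.20 and 0.49. For Rab15 at it was -0.47 with control 72 HAF replicate 1 left out and -1.22 with replicate 2 left out. None of the 10 passed (0% of all), and 0 had an unadjusted p under 0.05, against 0.371% of all probe sets. The median was -0.12 over the members and 0.03 over all.

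With water, the genes were followed from 24 to 72 HAF; both steps use the control arrays of 48 HAF, as does the drought comparison at that time. From 24 to 48 HAF, 7 of the 10 probe sets were lower and 3 higher, with a median of -0.21 against -0.08 over all probe sets. LEA1 was at 3.11 ± 0.36 at 48 HAF against 4.08 ± 1.2 at 24 HAF, Em s_at at 1.54 ± 0.017 against 2.42 ± 1.1, and EMH2 x_at at 3.00 ± 0.54 against 3.68 ± 1.0 (SD, n = 2 each). Control 24 HAF replicate 2 carried these differences: without it they were -0.13, -0.07 and 0.03 in place of -0.97, -0.88 and -0.69. Without it 0 of 10 passed, and with it alone standing for 24 HAF, 4 of 10 did, as did 41.9% of all probe sets.

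Rab15 TaAffx was the member with the smallest unadjusted p from 24 to 48 HAF, at 2.03 ± 0.26 against 2.80 ± 0.43 (n = 2 each). Its difference of -0.77 had a 95% interval of -1.43 to -0.12 (limma unadjusted p = 0.0261, adjusted p = 0.621), and it was -0.47 without control 24 HAF replicate 2. It was the 1 of 10 with an unadjusted p under 0.05, against 1.48% of all probe sets, and 0 of 10 passed the adjusted threshold (0% of all). Arrays of 24 and 48 HAF did not overlap for 3 of 10, against 24.8% of all. These were that probe set and Em s_at, both lower at 48 HAF, and Rab15 x_at, higher by 0.30.

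From 48 to 72 HAF with water, 8 probe sets were higher and 2 lower, with a median of 0.15 against 0.00 over all. Rab15 x_at differed by 0.19 and COR410 by 0.06, each with overlapping arrays. The arrays did not overlap for LEA1 (0.34), Em x_at (0.33) and EMH2 s_at (-0.05), 3 of 10 against 33.0% of all. By limma 0 of 10 passed (adjusted p = 1 for each; 0% of all), and 0 had an unadjusted p under 0.05, against 0.306% of all.

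In drought seeds LEA1 was the member with the widest gap between the times, at 4.08 ± 0.68 at 72 HAF against 2.96 ± 0.13 at 48 HAF (n = 2 each). The difference of 1.11, or 2.16-fold, had a 95% interval of -0.10 to 2.32 and did not pass (limma unadjusted p = 0.0668, adjusted p = 0.953). It was 0.63 with drought 72 HAF replicate 2 left out and 1.59 with replicate 1 left out. Rab15 differed the other way, by -0.51 for Rab15 at and -0.21 for Rab15 x_at, and in both probe sets every 72 HAF array lay under every 48 HAF array. Those 2 and LEA1 made 3 of 10 without overlap, against 44.5% of all probe sets. None of the 10 passed (0% of all) or had an unadjusted p under 0.05, against 4.04% of all, and 5 were higher and 5 lower with a median of -0.06 against 0.06 over all.

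Over both treatments LEA1 was at 3.76 ± 0.54 at 72 HAF and 3.04 ± 0.24 at 48 HAF (SD, n = 4 each). Its difference of 0.73 had a 95% interval of -0.13 to 1.58 and did not pass (limma unadjusted p = 0.0865, adjusted p = 0.974). It was higher on 4 of 4 arrays of 72 HAF than on every array of 48 HAF, the 1 of 10 members without overlap, against 12.2% of all probe sets. Leaving out drought 72 HAF replicate 2 lowered it to 0.49 (adjusted p = 1.00). The other 9 differed by -0.28 to 0.18. By limma 0 of 10 passed (0% of all) and 0 had an unadjusted p under 0.05, against 3.76% of all.

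Other genes of the response to drying, cold and heat were sought by name, and the annotation held 2: PER1 (LOC543108), a peroxiredoxin known from cereal embryos and aleurone, and hsp16.9A (LOC543277), a small heat shock protein. In the 8 comparisons 0 of the 2 passed limma's threshold. By its brighter probe set PER1 read 4.31 and 5.07 with water and 5.36 and 6.59 under drought at 72 HAF, against 4.31 to 4.61 in the 4 arrays of 48 HAF, and its drought difference of 1.28 at 72 HAF did not pass (adjusted p = 1). The small heat shock gene was at 3.94 ± 0.071 at 72 HAF and 3.26 ± 0.52 at 48 HAF over both treatments (n = 4 each; adjusted p = 0.974). Both genes, like LEA1, had higher means at 72 HAF, and both had their highest log2 value on drought 72 HAF replicate 2. By percentile only PER1 did (79.5); hsp16.9A was at 46.8 there, against 47.7 on control 72 HAF replicate 1.

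A gene of the starchy endosperm differed between arrays of 1 group by far more than the LEA genes did. The gamma-gliadin LOC543214, a grain storage protein, read 1.59 to 1.80 on the 4 arrays of 48 HAF, 1.60 and 8.73 on control 72 HAF replicates 1 and 2, and 8.62 and 8.17 in drought at 72 HAF. At 24 HAF it read 1.84 on replicate 1 and 7.55 on replicate 2. It was named after its values had been seen, as the endosperm gene with the widest gap between control replicates. Of the 10 endosperm genes, 9 read higher on control 72 HAF replicate 2 than on replicate 1, and waxy (LOC543395), which makes amylose, read 10.68 and 10.70. At 24 HAF 7 read higher and 3 lower on replicate 2, among the latter AGP-S (LOC543299), at 10.02 on replicate 1 and 8.38 on replicate 2. Between the control arrays of 72 HAF, EMH2 x_at differed by 0.85, Rab15 at by 0.75 and Rab15 x_at by 0.56, each higher on replicate 1, where the gliadin was low. The other 7 members differed by 0.03 to 0.22, among them LEA1 by 0.04 and COR410 by 0.14. The endosperm mean was 5.25 and 8.08 on these 2 arrays, against 8.20 and 7.31 in drought, and its part in the Rab15 and LEA1 differences was not tested. The labelled tissue showed both green tissue genes (3 genes, mean 11.63 to 12.28) and histones (5 genes, mean 10.40 to 11.33) on every array.

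**Figure D4:**
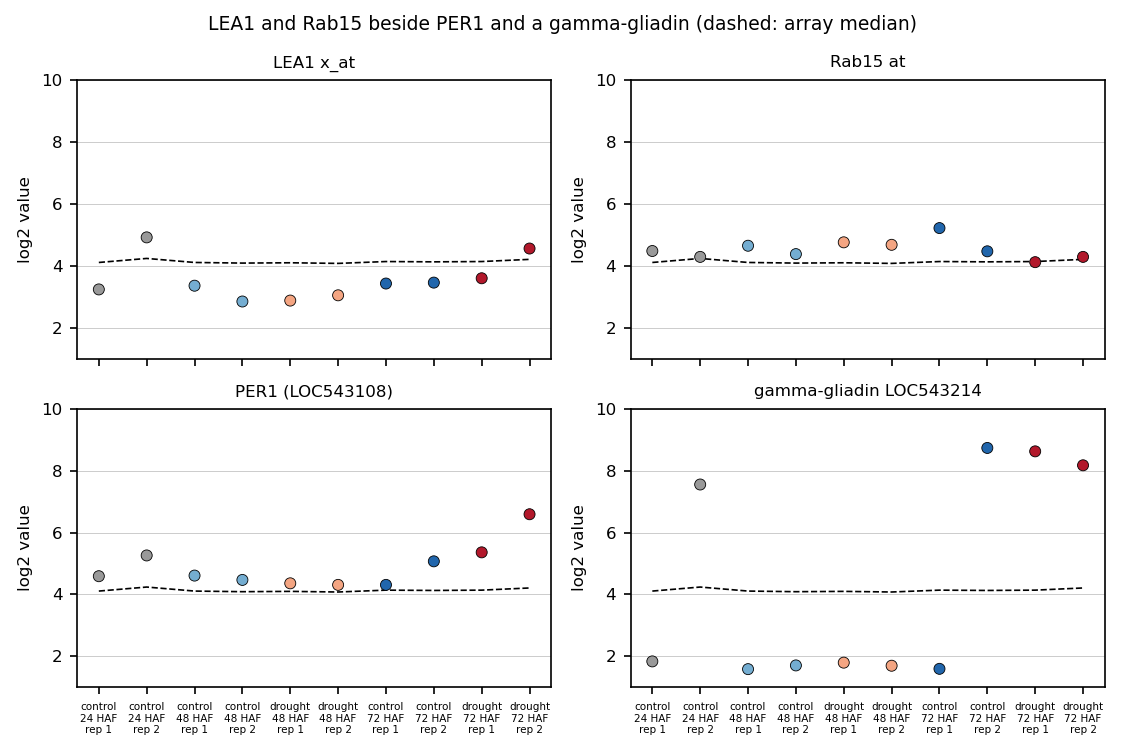
Log2 value per array of LEA1 and Rab15 (top) and of PER1 and the gamma-gliadin LOC543214 (bottom), coloured by group, with the array median as a dashed line. LEA1 stays between 2.85 and 3.60 on 8 arrays and reads 4.92 on control 24 HAF replicate 2 and 4.56 on drought 72 HAF replicate 2, while the gliadin reads 1.59 to 1.84 on 6 arrays and 7.55 to 8.73 on the other 4.

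Among annotated genes above the array median, those most like Rab15 x_at over the 10 arrays were LOC542773 (Pearson r = 0.805), LOC543353 (0.795) and LOC543245 (0.792). Without control 24 HAF replicate 2 they gave 0.774, 0.754 and 0.800, and the 3 most alike were LOC780687 (0.818), LOC543245 and LOC100037600 (0.798). For EMH2 s_at they were LOC543195 (0.814), LOC100037584 (0.789) and LOC780574 (0.776), which fell to 0.588, 0.562 and 0.651 over the 9 arrays. Over those 9 the 3 most alike were LOC543131 (0.826), LOC542994 (0.810) and LOC780574, of which LOC543131 had r = -0.263 and LOC542994 r = -0.203 over all 10. These values are the highest of 619 genes over arrays that share their normalization, so they describe likeness and carry no test. COR410, LEA1 and Em lay below the median of the arrays by their brightest probe sets, and no like genes were sought for them.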

How the data were processed

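Total RNA of whole seeds was extracted with Trizol and RNeasy columns and labelled for 1 Affymetrix wheat array per sample, per the labels' protocols. The authors deposited log2 values. Per the submitters' processing notes the tools were affy and RMA, without versions. RMA shrinks differences between dim probe sets. The 10 columns were used as deposited, with no filter, pseudocount or scaling, and the tests passed over 111 control probe sets. Gene names come from the array annotation and, for synonyms, from the reference table of assembly IWGSC CS RefSeq v2.1, which held all 5 genes; no sequence of these genes was used here.

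All 61179 probe sets entered 1 linear model (limma 3.58.1, R 4.3.3) that gave each group its own mean. The fit had 5 residual degrees of freedom and, with the prior variance following intensity, 3.59 prior ones, and used Benjamini-Hochberg adjustment within each of 8 contrasts. Intervals are unadjusted 95% intervals. The fit was tested on simulated data in which all probe sets of a group had the same spread. Spreads differ between probe sets here, so that test does not give the power on these data. The number of arrays limits the precision. Other settings were each array left out, array weights, no trend, the replicate number as a block, 2 scalings, a filter on level and, added after seeing the data, both compressed arrays left out. The genes, lists and tests were chosen with earlier results of these data known, and marker patterns were matched to synonyms after the names had been seen. All members are named, and the most alike genes are the 3 highest r among annotated genes above the median. A gene's brightest probe set has the highest mean.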

Additional observations from a re-analysis of the deposited data

How the results depend on the processing

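No dehydrin or LEA probe set passed limma's threshold in any of the 8 comparisons under 16 of the 17 other settings. The exception was control 48 against 24 HAF with control 24 HAF replicate 1 left out, where the count over the settings without 1 array ran from 0 to 4 of 10, and from 0 to 25621 over all probe sets. Over all probe sets, the settings without 1 array also gave 0 to 2 calls for drought against control at 48 HAF, for control 72 against 48 HAF (both without control 48 HAF replicate 2) and for 72 against 48 HAF over both treatments (without control 72 HAF replicate 1). With control 24 HAF replicate 1 left out, the lone 24 HAF array is the one that stands apart. It is then assumed to vary like the other groups, which alone supply the spread. The 4 called members were LEA1 (-1.81, adjusted p = 0.00851), Em s_at (-1.70, 0.000486), EMH2 x_at (-1.40, 0.0393) and Rab15 TaAffx (-1.08, 0.00992). Of 1304 differences of single probe sets under other settings, 644 were identical to the reported value, mostly because the setting does not enter the estimate. Of the other 660, 616 moved by less than 1 SD and 97 changed sign, none of the latter past the threshold. The largest shift was 0.84. In each comparison 5 or 6 of the 10 changed sign when some 1 array was left out. The filter on level left 3 of the 10 probe sets. When a gene's probe sets were averaged, 22 of 24 differences moved by less than 1 SD and 4 changed sign. The replicate number as a block gave 0 calls in every comparison, among members and among all probe sets. Replicate deviations correlated between groups at -0.519 to 0.586, over 0.1 in 3 of 10 pairs of groups. The highest was between control 24 HAF and drought 72 HAF, each with a compressed replicate 2. These values therefore cannot tell whether the numbers pair the arrays. Signal over background was not measured.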
